A study of Mus musculus with 12 samples.

Results

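Interferon-stimulated genes are genes that cells switch on when they sense interferon, and 33 of them are described here in macrophages sorted from mouse pancreatic tumours. The 33 were listed by name and matched to the gene names of the array's non-control probes. All 33 had a probe, out of 30959 gene names and other features on the array, and all 33 passed the filter on dim probes that left 20282 genes and features to test. They were represented by 43 probes, of which 40 passed.

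Transcript levels were measured on 12 one-colour Agilent 4x44K arrays, 6 of YFP+ and 6 of YFP- macrophages. All 12 samples came from pancreas tumours of female C57/B6 mice aged 8-10 weeks that had been implanted with tumours, and the cells had been sorted by flow cytometry straight into lysis buffer. The genotype of each sample is given as not provided. The series as a whole names wild-type, KPC and FLT3-CRE/LSL-YFP mice, and in the last of these a Cre recombinase under Flt3 control switches on a yellow fluorescent protein in cells with a history of Flt3 expression. KPC names a widely used mouse model of pancreatic cancer, and which of the 12 samples came from which mice is not given in the sources used here. The YFP+ and YFP- samples carry a number in their titles that each shares with exactly 1 sample of the other group. Those numbers are called tumour 1 to 6 here, and the labels do not say what they mark or whether the 12 samples came from separate animals. The p-values therefore measure only the spread between these samples.

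Type I interferons signal through the IFNAR receptor and the kinases JAK1 and TYK2 to a complex that includes STAT2 and IRF9, which binds a sequence called the interferon-stimulated response element (ISRE). Interferon gamma signals through its own receptor to the gamma-activated sequence (GAS). The genes switched on include sensors of viral RNA, enzymes and binding proteins that block viral replication, GTPases that attack vacuoles holding microbes, and parts of the signalling chain itself. Macrophages, in tumours as elsewhere, both make and respond to interferons.

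The members are linked by regulation, and their promoters show the shared letters directly. RefSeq promoter windows (GRCm38.p6, 250 bases before to 50 bases after the start) were matched by symbol for 24 of the 33 members, as 26 windows. An ISRE core, which is GAAA, 2 bases of any kind and GAAA again (on the other strand TTTC, 2 bases and TTTC), lay in 16 of the 24 (66.7%), against 3.99% of all 27025 symbols with a window and 3.44% of all 32851 windows. A GAS core, TTCNNNGAA, which reads the same on both strands, lay in 7 of the 24 (29.2%), against 9.55% of all symbols and 8.30% of windows. Both motifs were searched on both strands, and matches may share bases. Both cores were found in 5 members (Bst2, Eif2ak2, Gbp5, Igtp and Oas1a), and neither was found in 6 (Cmpk2, Ifi44, Ifi47, Oasl1, Oasl2 and Xaf1). A match is a run of letters and not a shown binding site.

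The 250 bases before the start are printed for 6 members that show how the motifs are arranged, with the matched cores in capitals. Isg15 (chr4:156200819-156201068, minus strand) was chosen for 3 overlapping ISRE cores, and Ifit3 (chr19:34583279-34583528, plus strand) for a pair of separate cores and because it differed most between the groups with an interval that left out 0. Oas1a (chr5:120907526-120907775, minus strand) has overlapping ISRE cores close to the start and a GAS core further out, and Gbp3 (chr3:142559794-142560043, plus strand) has overlapping ISRE cores alone. Gbp5 (chr3:142496684-142496933, plus strand) and Igtp (chr11:58199306-58199555, plus strand) are GTPase genes with both motifs. Each sequence runs 5′ to 3′ on the strand of its gene.
Isg15: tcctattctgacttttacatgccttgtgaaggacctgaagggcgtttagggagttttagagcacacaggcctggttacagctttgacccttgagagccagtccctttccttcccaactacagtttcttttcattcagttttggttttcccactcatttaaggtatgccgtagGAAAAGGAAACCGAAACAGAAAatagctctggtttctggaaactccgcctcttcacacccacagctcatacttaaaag
Ifit3: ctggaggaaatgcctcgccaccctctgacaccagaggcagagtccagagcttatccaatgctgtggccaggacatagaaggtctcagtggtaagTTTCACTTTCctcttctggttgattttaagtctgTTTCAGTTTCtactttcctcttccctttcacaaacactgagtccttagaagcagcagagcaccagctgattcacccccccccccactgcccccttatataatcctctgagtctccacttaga
Oas1a: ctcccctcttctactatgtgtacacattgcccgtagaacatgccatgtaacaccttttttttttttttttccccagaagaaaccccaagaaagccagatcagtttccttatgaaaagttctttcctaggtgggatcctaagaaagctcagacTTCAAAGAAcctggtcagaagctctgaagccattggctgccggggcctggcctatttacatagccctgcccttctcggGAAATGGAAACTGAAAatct
Gbp3: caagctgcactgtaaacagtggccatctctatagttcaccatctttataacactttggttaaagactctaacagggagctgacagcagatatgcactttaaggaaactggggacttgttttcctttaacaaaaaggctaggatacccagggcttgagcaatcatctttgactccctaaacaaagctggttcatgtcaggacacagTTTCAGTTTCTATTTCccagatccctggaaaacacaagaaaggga
Gbp5: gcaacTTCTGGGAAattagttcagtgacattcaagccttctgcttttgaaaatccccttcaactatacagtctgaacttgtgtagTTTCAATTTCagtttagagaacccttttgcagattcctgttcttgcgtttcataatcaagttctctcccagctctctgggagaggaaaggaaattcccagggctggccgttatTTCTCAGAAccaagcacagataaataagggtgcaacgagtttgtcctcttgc
Igtp: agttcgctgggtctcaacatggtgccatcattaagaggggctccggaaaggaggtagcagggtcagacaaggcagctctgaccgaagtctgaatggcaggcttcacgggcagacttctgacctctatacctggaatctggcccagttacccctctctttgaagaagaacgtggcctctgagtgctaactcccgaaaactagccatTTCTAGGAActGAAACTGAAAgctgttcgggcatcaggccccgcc
In Isg15 the 3 cores began 78 to 66 bases before the start, and in Ifit3 the cores began 156 and 122 bases before it. In Oas1a the ISRE cores began 20 and 14 bases before the start and the GAS core 98 bases before it. The Gbp3 cores began 45 and 39 bases before the start. Gbp5 had its ISRE core 165 bases before the start and its GAS cores 245 and 52 bases before it, while Igtp had a GAS core at 45 and an ISRE core at 34 bases.

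Array quality bears on every value that follows. The signal at the 75th percentile of an array, by which its values were scaled, was 3661 ± 265 (SD, n = 6) in YFP+ and 2642 ± 413 (SD, n = 6) in YFP-, and 64.9 ± 0.92% and 63.4 ± 1.18% (SD, n = 6) of spots were well above background. All 12 macrophage markers were well above background on all 12 arrays, with a median log2 difference of -0.13 between YFP+ and YFP- and 0 called. Of the lists of other cell types, some held markers called lower in YFP+ and none held a marker called higher: 6 of 11 epithelial, 8 of 12 fibroblast, 3 of 5 red cell and 1 of 8 acinar markers tested were called lower. With 0 called in limma, B and plasma cell markers had a median difference of 0.76 (of 7, 3 higher and 1 lower at an unadjusted p under 0.05) and T and NK cell markers one of 0.24 (of 6, 0 in either direction). Endothelial, plasmacytoid dendritic cell and neutrophil markers had medians of -0.10, -0.01 and -1.60, also with 0 called and with 0, 2 and 5 markers at an unadjusted p under 0.05. The sum of epithelial marker signals, as multiples of the array's 75th percentile, was 5.13 to 11.6 in YFP+ and 16.5 to 43.7 in YFP-, and that of fibroblast markers was 14.3 to 35.1 and 54.4 to 139. Of the epithelial list, 10 of 12 markers and of the fibroblast list 9 of 12 were well above background on all 12 arrays. In these bulk samples fewer cells of a type and less RNA per cell cannot be told apart. The 2 arrays of tumour 6, both on slide 1, stood apart for the members. The differences of Oas2, Ifit3, Usp18 and Gbp5, and the spread and covariation of the members, are given with and without them. The differences of the other members are given with them only.

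No interferon-stimulated gene passed the test between YFP+ and YFP- macrophages. In limma, with p-values adjusted by Benjamini-Hochberg over the 20282 genes tested and 0.05 as threshold, 0 of the 33 members were called, against 356 of all genes tested (1.76%), of which 68 were higher (0.335%) and 288 lower (1.42%) in YFP+. At an unadjusted p under 0.05, 3 members were lower in YFP+ (Ifit3, Gbp5 and Oas2; 9.09%) and 0 were higher, against 7.54% and 3.71% of all genes. The 6 values of one group lay clear of the 6 of the other for 0 members and for 383 of all genes (1.89%). A share of 3 in 33 is near the 7.54% of all genes and is not a result about the members.

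Of the 33 log2 differences, 20 were above 0 and 13 below, with a range from -1.06 to 1.22, while 9556 of all genes were above 0 and 10726 below. The split was 27 and 6 with scaling on the array median, 17 and 16 with array brightness as a covariate, and 14 and 19 without the YFP- array of tumour 6. Their median was 0.11, against -0.03 over all genes tested. Scaling on the array median, which adds the same amount to every gene, moved the median of all genes to 0.18 and that of the members to 0.32. The gap between the member median and that of all genes was 0.14 as reported, 0.07 with quantile normalization, 0.29 with no filter on dim probes, -0.06 with the brightness covariate and -0.05 without the YFP- array of tumour 6. Within the 3 slides, each with 2 arrays of each group, the member median was 0.45, 0.20 and -0.32, so its sign was not the same on every slide. The median absolute difference was 0.28 for the members and 0.29 for all genes. For 14 of the 33 members (42.4%) the 95% interval lay inside a 2-fold change in either direction, as for 44.9% of all genes, and for the other 19 a change of 2-fold or more stayed within the interval.

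**Figure D1:**
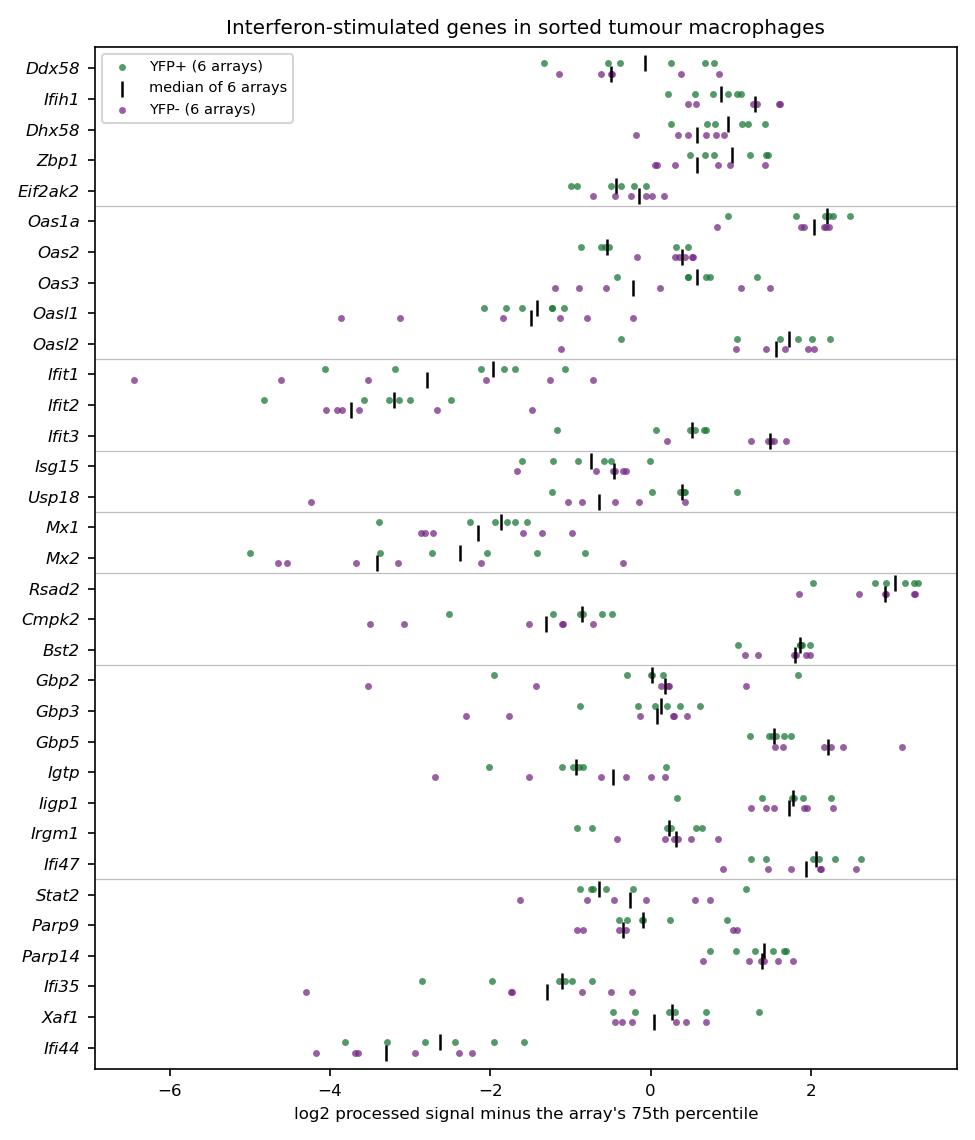
Level of each of the 33 genes on each array, as log2 processed signal minus the array's 75th percentile (horizontal axis), for 6 YFP+ (green) and 6 YFP- (purple) arrays, with group medians as vertical ticks and role classes parted by grey lines. The groups overlap in every row, and levels of different genes come from different probes and are not comparable.

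**Figure D2:**
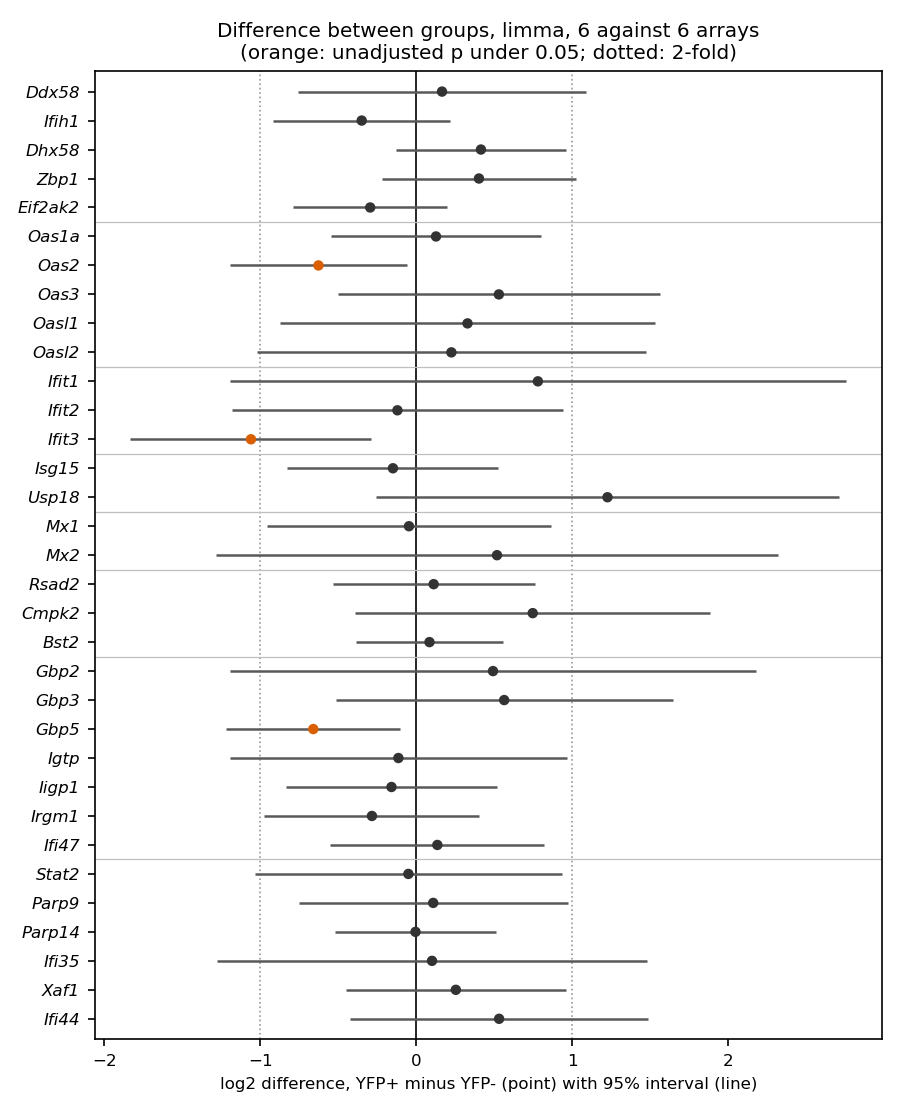
Log2 difference of each gene, YFP+ minus YFP-, from limma with its 95% interval (6 against 6 arrays). The interval of Ifit3, Oas2 and Gbp5 (orange) lies below 0, and those of the other 30 genes include it.

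The sensors of foreign nucleic acid had differences of both signs, none of them called. Dhx58, which encodes LGP2, a regulator of the RNA sensors RIG-I and MDA5, ran from 0.26 to 1.43 around a median of 0.97 in YFP+ and from -0.17 to 0.92 around 0.58 in YFP-. Its log2 difference was 0.41 (SE 0.25, adjusted p = 0.61, limma), with YFP+ higher for 5 of 6 tumour numbers and overlapping groups. Zbp1, a sensor of Z-form nucleic acid that can start cell death, ran from 0.50 to 1.46 around 1.02 in YFP+ and from 0.06 to 1.43 around 0.58 in YFP-. The Zbp1 difference was 0.40 (SE 0.29, adjusted p = 0.68, limma) by the probe used and -0.58 by its other probe. The probes were unrelated across the 12 arrays (r = -0.25), so no direction can be given for this gene. Ddx58 (RIG-I), Ifih1 (MDA5) and Eif2ak2 (PKR, a kinase that stops translation on viral RNA) differed by 0.16, -0.35 and -0.30.

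Among the oligoadenylate synthetases, whose products activate RNase L, Oas2 had the lowest difference, and the other 4 genes had differences above 0. Oas2 (probe at mm9 chr5:121180343-121180402) ran from -0.87 to 0.47 around a median of -0.55 in YFP+, and from -0.17 to 0.54 around 0.40 in YFP-. The YFP+ array was the lower for 6 of 6 tumour numbers, although the group ranges overlap. The log2 difference was -0.63 (SE 0.26, 95% interval -1.19 to -0.06, 1.54-fold, adjusted p = 0.37, limma). It was -0.64, -0.45 and -0.80 within the 3 slides, and -0.57 (adjusted p = 0.64) without tumour 6. Oas3 ran from -0.42 to 1.32 around 0.58 in YFP+ and from -1.19 to 1.49 around -0.22 in YFP-, and its difference of 0.53 (SE 0.47, adjusted p = 0.77) was on the other side of 0 from that of Oas2. Oas1a and the synthetase-like genes Oasl1 and Oasl2 differed by 0.13, 0.33 and 0.22.

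The IFIT proteins bind viral RNA and block its translation, and their differences, from -1.06 to 0.78, spanned the widest range of the 8 role classes. Ifit3 (probe at mm9 chr19:34663105-34663164), which encodes a partner that stabilises IFIT1, ran from -1.16 to 0.69 around a median of 0.52 in YFP+ and from 0.20 to 1.69 around 1.49 in YFP-. The tumour 6 array gave the lowest value of each group, and with it the groups overlap. On the other arrays YFP+ values were 0.07 to 0.69 and YFP- values 1.25 to 1.69. The share of all genes that part in this way without tumour 6 was not counted. The log2 difference was -1.06 (SE 0.36, 95% interval -1.83 to -0.29, 2.08-fold lower, adjusted p = 0.22, limma), with YFP+ lower for 6 of 6 tumour numbers. The difference was -1.28, -0.88 and -1.02 within the 3 slides. Without both tumour 6 arrays it was -0.998 with adjusted p = 0.038 (limma). This was the only call of a member in any setting tried, and 213 of all genes (1.05%) were called lower in that setting. Ifit3 stood apart from its group on both of those arrays, which were singled out after their values were seen. The call is therefore not separate support for a difference.

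The epithelial and fibroblast markers given above were lower in YFP+, as the values of Ifit3, Oas2 and Gbp5 were, and their part in these differences was not tested. Ifit3b, a close paralog of Ifit3, had a difference of -2.11 (SE 0.73, adjusted p = 0.25, limma). It was well above background on 4 YFP+ and 6 YFP- arrays, with a lowest YFP+ value of -6.88, which limits what this difference shows. How far each probe also reads the other gene was not tested.

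Ifit1, which binds foreign RNA that lacks the host's cap methylation, ran from -4.06 to -1.07 around -1.97 in YFP+ and from -6.45 to -0.72 around -2.79 in YFP-. It was well above background on 6 YFP+ and 4 YFP- arrays, and its difference of 0.78 (SE 0.91, adjusted p = 0.84) was smaller than its error. Ifit2 ran from -4.83 to -2.49 around -3.20 in YFP+ and from -4.05 to -1.48 around -3.74 in YFP-, with a difference of -0.12 (SE 0.49, adjusted p = 0.96) over overlapping groups. Neither had the order that Ifit3 showed across the tumour numbers, with YFP+ higher for 3 and 4 of the 6.

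In the ISG15 system, a ubiquitin-like tag and its protease, the protease had the highest difference of the 33 members and the tag a difference near 0. Usp18 (probe at mm9 chr6:121220874-121220933), the protease that removes ISG15 and dampens signalling from the type I receptor, ran from -1.23 to 1.08 around a median of 0.39 in YFP+ and from -4.24 to 0.43 around -0.65 in YFP-. YFP+ was the higher for 6 of 6 tumour numbers, yet the groups overlap and the lowest YFP- value lies far below the others. The log2 difference was 1.22 (SE 0.68, 95% interval -0.26 to 2.71, adjusted p = 0.56, limma), and it was 2.56, 1.04 and 0.08 within the 3 slides. Without both tumour 6 arrays it was 0.87 (adjusted p = 0.34), and without the YFP- array of tumour 6 alone it was 0.59 (adjusted p = 0.69).

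Isg15 itself ran from -1.61 to -0.00 around -0.74 in YFP+ and from -1.67 to -0.31 around -0.45 in YFP-. Its difference was -0.15 (SE 0.31, adjusted p = 0.92, limma) by the probe used and 0.40 by the other. The probes correlated at r = 0.11 over the 12 arrays, so the direction depends on the probe.

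The probes of the Mx GTPase genes were dim. Proteins of this family can trap viral nucleocapsids, and whether these mice make a working Mx protein was not examined. Mx1 ran from -3.39 to -1.54 around -1.87 in YFP+ and from -2.86 to -0.98 around -2.16 in YFP-, a difference of -0.05 (SE 0.42, adjusted p = 0.99). Mx2 ran from -5.00 to -0.82 around -2.38 in YFP+ and from -4.65 to -0.34 around -3.42 in YFP-, and was well above background on 6 and 4 arrays. Its difference of 0.52 (SE 0.83, adjusted p = 0.89) was less than the spread between arrays.

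Rsad2 (viperin, which makes a chain-terminating nucleotide), its genomic neighbour Cmpk2 (a nucleotide kinase) and Bst2 (tetherin, which holds budding virus at the cell surface) also overlapped between groups. Rsad2 ran from 2.03 to 3.34 around 3.06 in YFP+ and from 1.85 to 3.30 around 2.93 in YFP-, with a difference of 0.11 (SE 0.30, adjusted p = 0.94). Cmpk2 ran from -2.51 to -0.48 around -0.86 in YFP+ and from -3.50 to -0.72 around -1.31 in YFP-, and its difference was 0.75 (SE 0.52, adjusted p = 0.68), with YFP+ higher for 5 of 6 tumour numbers. Bst2 had the narrowest interval of the 33 members, and it ran from 1.09 to 1.99 around 1.87 in YFP+ and from 1.18 to 1.99 around 1.80 in YFP-. The Bst2 difference of 0.08 had a 95% interval of -0.39 to 0.56, which leaves out a change of 2-fold.

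The interferon-inducible GTPases, many of which respond strongly to interferon gamma, held the third member with an unadjusted p under 0.05. Gbp5 (probe at mm9 chr3:142181426-142181485), a guanylate-binding protein that promotes inflammasome activity, ran from 1.25 to 1.75 around a median of 1.54 in YFP+ and from 1.56 to 3.14 around 2.21 in YFP-. YFP+ values were packed together (SD 0.18, n = 6) and YFP- values were not (SD 0.57, n = 6), and the ranges overlap. The log2 difference was -0.66 (SE 0.26, 95% interval -1.22 to -0.10, adjusted p = 0.32, limma), with YFP+ lower for 4 of 6 tumour numbers. Within the 3 slides it was -1.06, -0.30 and -0.62, without tumour 6 it was -0.66, by the other Gbp5 probe it was -0.10, and with array brightness as a covariate it was 0.11.

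Gbp3, another guanylate-binding protein, had a difference above 0. It ran from -0.89 to 0.62 around 0.13 in YFP+ and from -2.30 to 0.45 around 0.07 in YFP-, with a difference of 0.56 (SE 0.50, adjusted p = 0.77). Of the remaining GTPases, Gbp2 and Ifi47 differed by 0.49 and 0.13, and Igtp, Iigp1 and Irgm1 by -0.11, -0.16 and -0.28.

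The 6 signalling and other effectors had a median difference of 0.10. Ifi44, a cytoplasmic protein with antiviral activity, ran from -3.81 to -1.58 around -2.63 in YFP+ and from -4.17 to -2.23 around -3.30 in YFP-, a difference of 0.53 (SE 0.44, adjusted p = 0.75). Xaf1, which promotes cell death by opposing the inhibitor XIAP, ran from -0.47 to 1.36 around 0.27 in YFP+ and from -0.45 to 0.69 around 0.04 in YFP-, a difference of 0.25 (SE 0.32, adjusted p = 0.86). Stat2, the transcription factor particular to type I and type III interferon signalling, differed by -0.05, and the ADP-ribosyltransferase family genes Parp9 and Parp14 by 0.11 and -0.01. The Parp14 interval, -0.52 to 0.51, was among those that lie inside a 2-fold change.

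These genes, like all genes tested, also varied between arrays of the same group. Each value was set against its gene's mean over the 12 arrays, and the median of these deviations over the 33 members was taken for each array. In YFP+ it was 0.27, 0.30, -0.01, 0.19, 0.14 and -0.63 for tumours 1 to 6, and in YFP- it was 0.42, -0.11, -0.37, 0.53, 0.14 and -0.74. The array of tumour 6 was the lowest of its group in both cases. The median deviation of all genes ran only from -0.14 to 0.15 over the 12 arrays and was 0.01 and 0.15 on those of tumour 6. Tumour 6 was singled out after its values were seen, and what follows describes it with no test.

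**Figure D3:**
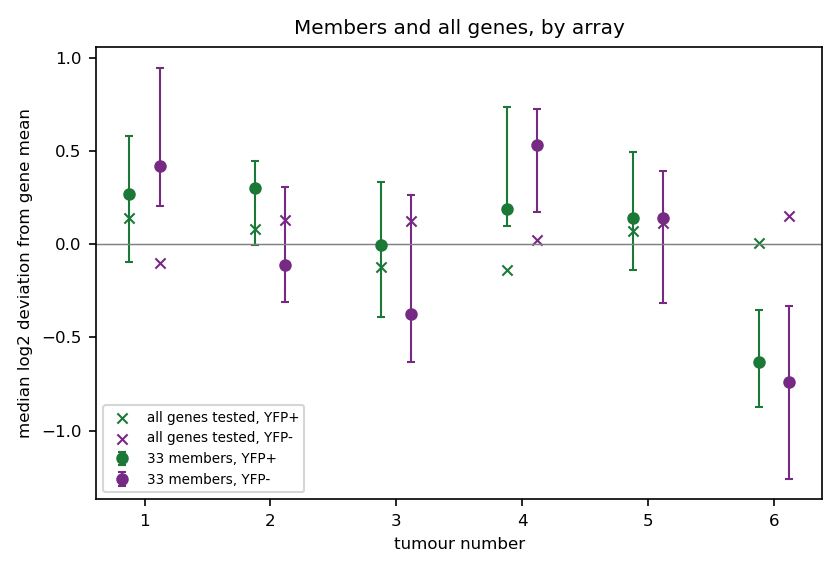
Median log2 deviation from each gene's mean over 12 arrays (vertical axis) for the 33 members (circles, with bars from the lower to the upper quartile of the 33) and for all genes tested (crosses), by tumour number and group. Both tumour 6 circles lie lowest in their group, at -0.63 and -0.74, while the crosses stay between -0.14 and 0.15.

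The shift ran through most of the members. On the tumour 6 array 28 members were below their own mean in YFP+ and 26 in YFP-. That array gave the lowest of the 6 values for 19 of 33 members in YFP+, against 15.6% of all genes, and for 19 of 33 in YFP-, against 16.5%. For 14 members (42.4%) it was the lowest in both groups, against 5.55% of all genes, and these were Bst2, Dhx58, Gbp2, Gbp3, Ifi44, Ifi47, Ifit1, Ifit3, Igtp, Oas1a, Oasl2, Parp14, Parp9 and Usp18. They cover every role class other than the Mx GTPases. For 9 members it was the lowest in neither group (Gbp5, Ifi35, Iigp1, Irgm1, Mx1, Mx2, Oas2, Oasl1 and Rsad2).

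The size of the shift differed between genes. Oasl2 deviated from its mean by -1.66 on the YFP+ array and -2.41 on the YFP- array of tumour 6, and Gbp2 by -1.67 and -3.24. For Oas1a the deviations were -0.96 and -1.10, where the other YFP+ arrays ran from 1.82 to 2.49 and the other YFP- arrays from 1.88 to 2.22 in level. Rsad2 was not low there, with deviations of 0.06 on both arrays, and Ifi35 lay above its mean at 0.78 and 1.02. By promoter, the members with an ISRE core had median deviations of -0.67 and -0.69 on the tumour 6 arrays. Those of the 8 members with a window but no ISRE core were -0.45 and -0.85, so the groups of promoters did not separate on both arrays.

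**Figure D4:**
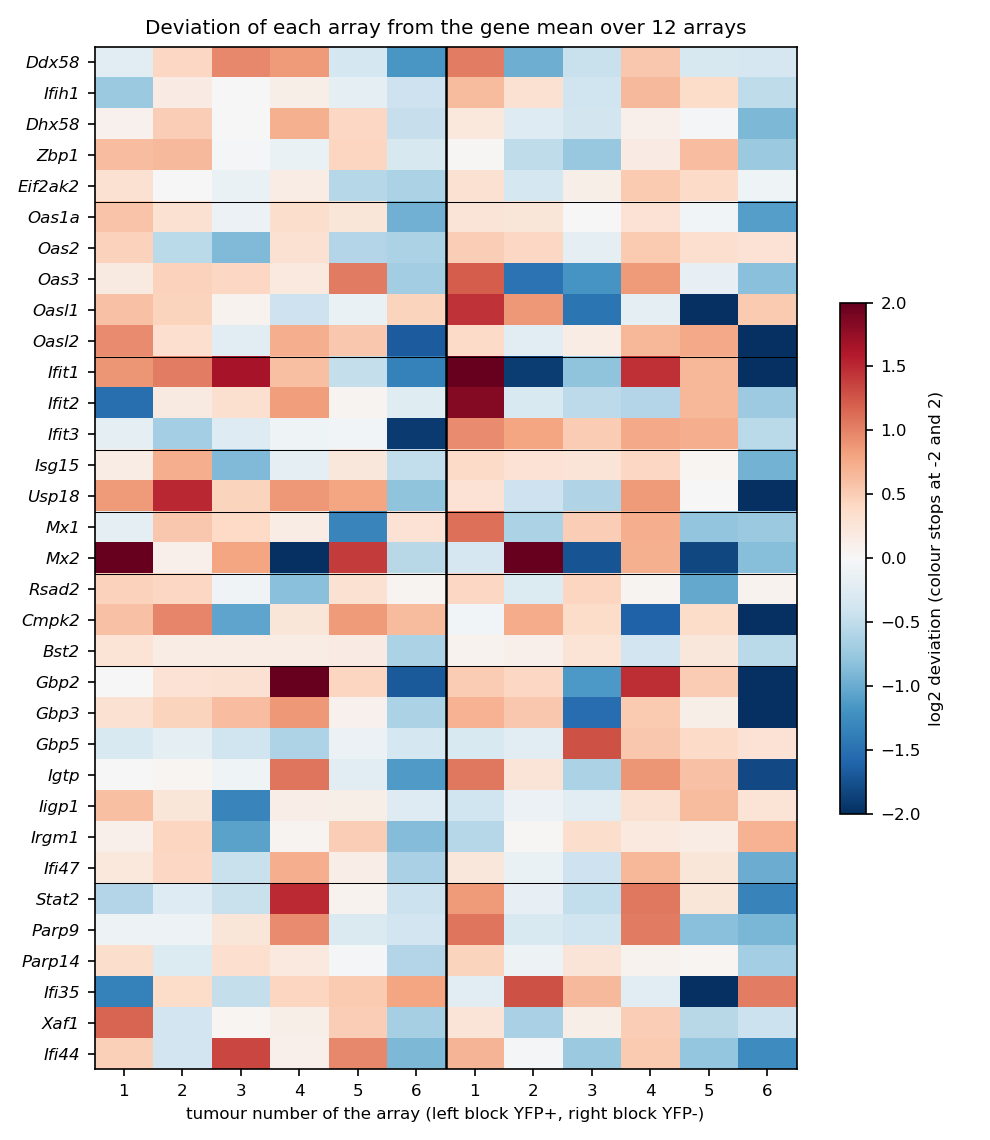
Log2 deviation of each array from the gene's mean over 12 arrays, for the 33 genes (rows, in role classes parted by black lines) on 6 YFP+ arrays (left) and 6 YFP- arrays (right), each ordered by tumour number. Blue, below the mean, fills most of the tumour 6 column of both groups (28 and 26 of 33 genes).

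Other measures on the tumour 6 arrays were as follows. The 71 further interferon-stimulated genes tested, which share no gene with the 33, had median deviations of -0.35 and -0.29 there, against -0.17 to 0.26 on the other 10 arrays. Macrophage markers deviated by -0.02 and 0.19. The summed level of B and plasma cell markers was the lowest of its group on both arrays, at 3.32 and 2.996 times the 75th percentile against ranges of 3.32 to 19.2 in YFP+ and 2.996 to 7.05 in YFP-, while Ms4a1 of that list was too dim to test. That of T and NK cell markers ranked 3 of 6 from the lowest in both groups. That of plasmacytoid dendritic cell markers, cells that make much type I interferon, ranked 3 and 4. The order of the lymphocyte lists depended on the measure. By median deviation, T and NK cell markers were the lowest of their group on both arrays, at -0.244 and -0.569. Tumour 4 was close to the former in YFP+, at -0.236. B and plasma cell markers were lowest in YFP+ at -0.30 but not in YFP-, at -0.62 against -1.06 for tumour 3. The part of either list in the shift was not tested. The other slide 1 arrays, YFP+ tumour 2 and YFP- tumour 3, had member medians of 0.30 and -0.37. Both arrays of tumour 6 were on slide 1, and the part of the slide in their low values was not tested.

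Spread and covariation of the members between arrays of a group were set beside those of all genes. The median SD over the 6 arrays was 0.65 for the members and 0.55 for all genes in YFP+, and 0.73 and 0.63 in YFP-. The median Pearson correlation between pairs of members over the 6 arrays of a group was 0.30 in YFP+ and 0.40 in YFP-, and 0.03 and 0.02 for pairs of all genes (4057 genes taken at even steps from those tested). Arrays share depth and scaling, and these correlations are a description. Without tumour 6 the member correlation was 0.03 in YFP+ and 0.29 in YFP-, against 0.04 and 0.02, and the member SD was 0.52 and 0.60, against 0.54 and 0.60 for all genes. The member correlation in YFP+ rested on the tumour 6 array, and that in YFP- did not rest on it alone.

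Members differed in how closely they tracked the median of the others over the 12 arrays, and the highest correlations belonged to genes that were lowest on the tumour 6 array in both groups. Ifi47, Igtp, Oasl2, Gbp2, Oas1a, Ifit1 and Usp18 correlated with that median at r = 0.90, 0.87, 0.86, 0.86, 0.85, 0.85 and 0.84. Over the 10 arrays left without tumour 6, a setting chosen after seeing the data, the same 7 genes gave 0.78, 0.64, 0.55, 0.58, 0.49, 0.70 and 0.68. Ifit3 was at 0.51 with tumour 6 and at -0.07 without it, and Bst2 at 0.50 and -0.59. Gbp5 (-0.24 and -0.42) and Ifi35 (-0.49 and -0.35) were below 0 in both cases.

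The rest of the pathway was measured with the same arrays, in 6 lists that hold 110 tested genes. In limma 0 of the 110 were called at an adjusted p under 0.05, against 1.76% of all genes, and at an unadjusted p under 0.05, 3 were higher and 5 lower, against 3.71% and 7.54%. With slide as a block 4 of the 110 were called, all lower in YFP+ (Ifi202b, Ms4a4c, Sp110 and Trim25), and with normexp background correction Ifi202b was called. Their median difference was 0.04. Most interferon genes were dim, with 7 of the 15 on the array passing the filter. Ifng, the gene of interferon gamma, was well above background on 0 arrays. Ifna11 and Ifna12, type I interferons and the ligands with the smallest p, differed by -0.52 (adjusted p = 0.59, limma) and 0.68 (adjusted p = 0.81). The 5 receptor chains tested lay between Ifngr1, a chain of the interferon gamma receptor, at -0.16 (adjusted p = 0.85) and Ifnar2, a chain of the type I receptor, at 0.18 (adjusted p = 0.85), each with its 95% interval inside a 2-fold change.

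Among the kinases and transcription factors, Jak2, the kinase of the interferon gamma receptor, had a median of 2.48 in YFP+ and 1.75 in YFP-, a difference of 0.53 (SE 0.22, adjusted p = 0.37). Irf1, a transcription factor induced by interferon gamma, had a median of 2.99 in YFP+ and 3.27 in YFP-, a difference of -0.24 (SE 0.17, adjusted p = 0.69). The 10 genes of that list were 5 above 0 and 5 below. Of the negative regulators, Ptpn6 (SHP-1, a phosphatase) differed by 0.38 (SE 0.15, adjusted p = 0.34) and Ptpn2, also a phosphatase, by 0.33 (SE 0.24, adjusted p = 0.71). Of the inducing sensors, Tlr9, a sensor of unmethylated DNA, differed by 0.30 (SE 0.18, adjusted p = 0.62) and Tlr4, the receptor for bacterial lipopolysaccharide, by 0.57 (SE 0.41, adjusted p = 0.70). In the list of further interferon-stimulated genes the lowest p belonged to Ifi202b, a DNA-binding protein of the HIN family. It ran from -5.92 to -2.66 around -3.93 in YFP+ and from -2.79 to -1.04 around -1.91 in YFP-, a difference of -2.22 (SE 0.53, adjusted p = 0.063), with YFP+ lower for 6 of 6 tumour numbers. The lowest YFP- value (-2.79) lay just under the highest YFP+ value (-2.66), so these groups overlap as well. Ifi202b was dim in YFP+, well above background on 5 YFP+ and 6 YFP- arrays.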

How the data were processed

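Total RNA from sorted macrophages was amplified as cDNA, labelled with Cy5 and hybridised, per the labels' protocols. The deposited intensity values are the red processed signal of Agilent Feature Extraction 11.5.1.1, per the file headers and the submitters' processing notes, after background subtraction and before any scaling between arrays. A log2 value table was deposited as well by the authors (median 8.83 in each of 12 columns, Spearman correlation with the arrays at least 0.9999). It keeps the order of the scanner values, and what scaling it had is not given in the sources used here. It was used as another setting, with 0 columns unused. Its fit called 323 genes (69 higher and 254 lower), the same counts as with quantile normalization, so these settings are not independent.

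Control spots (1377 an array) and outlier spots were left out, repeat spots of 399 probes were averaged, and 35 of 39429 probes lacked a value on some array. No probe was saturated. The log2 of each signal minus the array's 75th percentile was used. A probe had to be well above background on 6 or more of the 12 arrays (25435 were), and the probe with the highest mean stood for its gene. Accessions of 28745 probes matched RefSeq, which renamed 1666. Probe positions are in mm9, per the file headers.

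The comparison used limma 3.58.1 under R 4.3.3 (group as the only factor, p-values adjusted over all genes by Benjamini-Hochberg, threshold 0.05). The procedure was tested on simulated data. No test was made over the list of members. Values were given for called members and for the 2 members of each role class with the smallest p (all of a class of 2 or 3), and up to 2 genes with the smallest p were taken from each pathway list. The members, lists and tests were chosen with earlier results of these data known. Alternatives changed the block, background correction, scaling, filter, probe choice, variance model or arrays used. The number of arrays limits the precision. Tables and plots were made in Python 3.11.15 with matplotlib 3.10.9, numpy 2.4.6 and pandas 2.3.3. Some items are not reported here.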

Additional observations from a re-analysis of the deposited data

Results flagged for a closer look

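In each group the highest or lowest of 6 arrays was compared with its nearest neighbour by Dixon's criterion, over 68 groups of values, and 12 stood apart from the others. Chance flags about 1 in 20 groups, and over all genes tested 5.45% of YFP+ and 6.35% of YFP- groups stood apart, beside 4 and 7 of the 33 members (12.1% and 21.2%). Of the 12, 8 were arrays of tumour 6, so they restate the low values of those arrays given above and are not independent of each other. In YFP- they were Oas1a at 0.83 (the others 1.88 to 2.22), Oasl2 at -1.12 (1.07 to 2.04), Ifit3 at 0.20 (1.25 to 1.69), Isg15 at -1.67 (-0.68 to -0.31) and Usp18 at -4.24 (-1.03 to 0.43). In YFP+ they were Ifit3 at -1.16 (0.07 to 0.69), Bst2 at 1.09 (1.86 to 1.99) and the median deviation of the 33 members at -0.63 (-0.01 to 0.30).

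The remaining 4 belonged to other tumours. Oas2 was -0.17 on the YFP- array of tumour 3 (the others 0.30 to 0.54), Cmpk2 was -2.51 on the YFP+ array of tumour 3 (-1.22 to -0.48), and Ifi35 was -4.30 on the YFP- array of tumour 5 (-1.74 to -0.23). Stat2 was high, at 1.19, on the YFP+ array of tumour 4 (-0.88 to -0.22).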

How the results depend on the processing

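The number of members called was 0 in the 15 alternatives that kept all arrays or a slide, and 0 to 1 when arrays were left out, the 1 being Ifit3 without both tumour 6 arrays. With slide as a block the adjusted p of Ifit3 was 0.050, still not under the threshold. Of 1086 member values in 33 other settings 113 had the other sign, and 7 members kept their sign in every setting (Cmpk2, Dhx58, Eif2ak2, Ifi44, Ifit3, Oas2 and Usp18). The member median ran from -0.06 to 0.22 when arrays were left out. The 356 genes called became 557 with slide as a block (123 higher and 434 lower), 0 on each slide alone, 543 with normexp, 233 when a probe had to be above background on all 12 arrays, 12 with array brightness as a covariate, and 203 to 385 when arrays were left out (210, 203 and 206 without both arrays of tumours 2, 3 and 5). Centring on the array median gave 117 higher and 230 lower calls, where the 75th percentile gave 68 and 288. Among the other genes of the pathway, 4 were called with slide as a block (Ifi202b, Ms4a4c, Sp110 and Trim25), 1 with normexp (Ifi202b), and 0 to 1 when arrays were left out, the 1 being Ifi202b without the YFP+ array of tumour 2. The causes were not tested.

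Tumour numbers were checked for pairing. Deviations of same-numbered arrays from their group means correlated at -0.30, 0.11, -0.13, 0.38, 0.19 and 0.28 for tumours 1 to 6. The highest correlation of each YFP+ array with a YFP- array of another number was 0.20, 0.15, 0.39, 0.32, 0.13 and 0.05. The same-numbered value was the higher for tumours 4, 5 and 6 and the lower for tumours 1, 2 and 3. These correlations cannot show whether same-numbered samples came from the same tumour or animal. With the tumour number as a replicate block 295 genes were called, 49 higher and 246 lower, with 0 members among them, and the adjusted p of Ifit3 was 0.051.

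Of the members, Ifit1, Ifit2 and Mx2 were well above background on fewer than 12 arrays, which limits what their low values show. The same holds for some of the other pathway genes, Ifit3b and Ifi202b among them.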
